A study of Mus musculus with 8 samples.

Results

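Binding of the transcription factor NF-YA was described at genes of vesicle trafficking in mouse muscle stem cells (MuSCs), the stem cells that repair skeletal muscle. The genes were chosen by symbol, as protein_coding genes of the families Rab, Sec, Cop, Vps, Arf, Tmed, Stx, Vamp, Snx, Trappc, Ap1 to Ap4, Golga and Exoc. The symbols picked 53 of 7196 NF-YA peaks, assigned to 47 genes, and left 3784 other protein_coding peaks for comparison. In total, 3837 peaks at 3203 genes were protein_coding.

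The study asked whether NF-YA binding depends on TAF4A, a subunit of the general transcription factor TFIID, and used CUT&RUN, in which an antibody guides a nuclease to the bound DNA. The labels give 8 libraries in 4 groups of 2, of which the 4 NF-YA libraries have values in the peak table, while the 4 libraries with mouse IgG served the authors for peak calling. All cells were activated/proliferating MuSCs of C57BL/6 mice, sorted and then grown in culture. Taf4asKO mice were Pax7CreERT / Taf4a flox/flox, in which tamoxifen at 8 to 20 weeks of age activates Cre in cells expressing *Pax7* and removes exons 11 to 12 of *Taf4a*. Control cells are labelled both as control and as WT. The methods list littermates carrying the floxed allele, with or without Cre, as controls and name tamoxifen for the knockout, and which of these gave the 2 control libraries is not given in the sources used here. Mice of both sexes were used. The study lists 2 replicates per genotype beside biological replicates of other libraries, and does not say outright whether these came from separate animals or cultures. If they did not, p-values measure only the spread between these libraries, which may be technical.

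Secretory proteins leave the endoplasmic reticulum (ER) in vesicles with a COPII coat, and COPI vesicles carry material back from the Golgi. Small GTPases of the Arf and Rab families mark each compartment and recruit coats and tethers, tethers catch the arriving vesicle, and SNAREs such as syntaxins and VAMPs fuse it with its target. Adaptor complexes, sorting nexins and Vps proteins select cargo at the trans-Golgi and endosomes. NF-Y is a trimer whose subunit NF-YA contacts DNA. It recognises the pentamer CCAAT and typically sits upstream of gene starts.

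The value of a peak is its read number after the authors' normalisation with DESeq2, rounded to whole numbers. In control replicates 1 and 2 the values amounted to 351729 and 111269 reads in peaks. In Taf4asKO replicates 1 and 2 they amounted to 735063 and 505389. Both knockout libraries thus held more reads in peaks than both control libraries. These numbers are not sequencing depth, since the study lists the most total reads in this comparison for control replicate 1. Effects of the number of reads in peaks and of genotype cannot be told apart. In control 2, which held the fewest reads in peaks, a read was worth 3.26 units and the median peak held 4.91 reads. The peak 1190 bases from the *Taf4* start, in which values were 99 and 117 in control versus 13 and 18 in Taf4asKO, lies outside the deleted exons and therefore does not check the genotype. These libraries do not measure expression, so the cell type could not be checked in them by its markers. Peaks were assigned to the myogenic genes *Myod1* and *Cdh15*, and to none of *Pax7*, *Myf5*, *Itga7*, *Calcr*, *Vcam1*, *Ptprc*, *Pecam1* or *Pdgfra*.

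The sequences around the CCAAT nearest the peak centre are shown for those of the 12 strongest vesicle trafficking peaks that hold CCAAT in their central 200 bases, which leaves out *Stx5*, and for the coat genes *Copz1* and *Sec23b*, to show the element nearest to where binding was measured. It lay within 42 bases of the peak centre at all of them except *Copz1* and *Sec23b* peak 1, where it was 93 and 97 bases away. Each is 61 bases of GRCm38 (mm10), written 5′ to 3′ along the strand of the gene, with CCAAT or its reverse complement ATTGG in capitals.
Arf2 (chr11:103966505-103966565, + strand): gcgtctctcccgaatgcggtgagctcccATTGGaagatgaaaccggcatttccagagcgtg
Rab40c (chr17:25920144-25920204, - strand): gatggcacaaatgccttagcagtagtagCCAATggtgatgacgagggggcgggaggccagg
Rab11b (chr17:33760568-33760628, - strand): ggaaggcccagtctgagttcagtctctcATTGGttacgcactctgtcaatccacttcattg
Trappc9 (chr15:73067552-73067612, - strand): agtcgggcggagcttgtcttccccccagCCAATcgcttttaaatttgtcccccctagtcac
Rab5b (chr10:128696400-128696460, - strand): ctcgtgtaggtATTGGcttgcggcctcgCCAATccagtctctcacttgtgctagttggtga
Copz1 (chr15:103272585-103272645, + strand): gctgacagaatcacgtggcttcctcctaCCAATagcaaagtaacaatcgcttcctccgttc
Rab8a (chr8:72161082-72161142, + strand): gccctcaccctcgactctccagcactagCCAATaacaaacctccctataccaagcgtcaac
Ap3m2 (chr8:22805760-22805820, - strand): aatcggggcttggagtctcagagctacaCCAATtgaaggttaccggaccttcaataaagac
Ap3d1 (chr10:80742391-80742451, - strand): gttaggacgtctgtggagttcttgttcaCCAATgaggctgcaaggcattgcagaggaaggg
Vamp1 (chr6:125215309-125215369, + strand): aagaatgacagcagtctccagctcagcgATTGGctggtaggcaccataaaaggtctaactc
Rab4b peak 1 (chr7:27179011-27179071, - strand): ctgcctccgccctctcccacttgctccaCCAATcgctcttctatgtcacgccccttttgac
Sec23b peak 1 (chr2:144556166-144556226, + strand): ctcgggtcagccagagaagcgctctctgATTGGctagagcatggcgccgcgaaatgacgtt

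In these windows CCAAT reads along the gene at *Rab40c*, *Trappc9*, *Rab5b*, *Copz1*, *Rab8a*, *Ap3m2*, *Ap3d1* and *Rab4b*, and on the opposite strand at *Arf2*, *Rab11b*, *Vamp1* and *Sec23b*. The *Rab5b* window alone among these holds a further copy, on the other strand. The element of *Trappc9* lies 6378 bases upstream of the start, in intergenic sequence, and all others lie 33 to 447 bases upstream of the start of their gene.

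Vesicle trafficking peaks were promoter peaks for the most part. Of 53 peaks, 47 (88.7%, 95% Wilson interval 77.4 to 94.7) were centred within 1000 bases of the assigned start, against 67.1% (65.6 to 68.6) of the other protein_coding peaks. The gap was smaller among strong peaks. At means of 10 or more the shares were 89.4% and 75.2%, and at means of 100 or more 95.2% and 89.3%. Within 200 bases of the start the shares were 62.3% (48.8 to 74.1) and 49.0% (47.4 to 50.6). The median distance was 130 bases for the vesicle trafficking peaks and 212 bases for the others. Of the 47 peaks near a start, 38 were centred upstream of it. The 6 distant peaks were the intergenic peaks of *Trappc9*, *Snx24*, *Snx16* and *Exoc4* (peak 2), and the intronic peaks of *Rab7b* and *Snx1*. The intervals treat peaks as independent and cover counting error only.

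Some of these promoters are shared with a neighbouring gene. The start of another protein_coding gene lay within 1000 bases of 6 of 53 peaks (11.3%), close to the 10.8% of the other protein_coding peaks. The neighbours were *Mcm7*, which encodes a subunit of the replicative helicase, at *Ap4m1* peak 1, *Adk* at *Ap3m1*, *Mrpl48* at *Rab6a*, *Rwdd4a* at *Trappc11*, *Bloc1s3* at *Trappc6a* and 1700092M07Rik at *Stx5*. At these 6 peaks binding cannot be attributed to the vesicle trafficking gene alone. The reverse also occurred, since peaks within 1000 bases of the starts of *Golga2*, *Vps35* and *Vps26b* were assigned to *Swi5*, *Orc6* and *Ncapd3*. The *Orc6* peak, 107 bases from the start of the retromer gene *Vps35*, showed 151 and 144 in control versus 107 and 150 in Taf4asKO, with overlapping groups. The *Ncapd3* peak had 57 and 55 against 56 and 61, also with overlap. The *Swi5* peak had 136 and 127 against 110 and 116, with both knockout values below both control values.

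CCAAT or its reverse complement was found in the central 200 bases of 47 of 53 peaks (88.7%, 77.4 to 94.7), against 82.9% (81.6 to 84.0) of the other protein_coding peaks and 78.5% of all peaks. Windows of the same length centred 1000 bases to either side of the vesicle trafficking peaks held it in 19 of 106 cases (17.9%, 11.8 to 26.3). The intervals of the vesicle trafficking peaks and the other peaks overlapped, so no difference in CCAAT content was detectable. The 6 peaks without CCAAT in the centre were those of *Sec16a*, *Stx5*, *Ap2s1* and *Snx16*, and peaks 2 and 3 of *Rab4b*. The *Stx5* peak was the only peak of these with a mean above 100, and held a copy outside its central 200 bases.

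The CCAAT nearest the centre lay at a median of 27 bases from the centre, and at 102.5 bases upstream of the start where the peak was within 1000 bases of it and held CCAAT (42 peaks). In 22 of those peaks it was 30 to 200 bases upstream. It read along the gene at 28 of 47 peaks (59.6%, 45.3 to 72.4), and at 49.5% of the other protein_coding peaks with CCAAT. A purine preceded it and C or G followed it at 34 of 47 peaks (72.3%, 58.2 to 83.1), against 62.6% of the others.

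**Figure D1:**
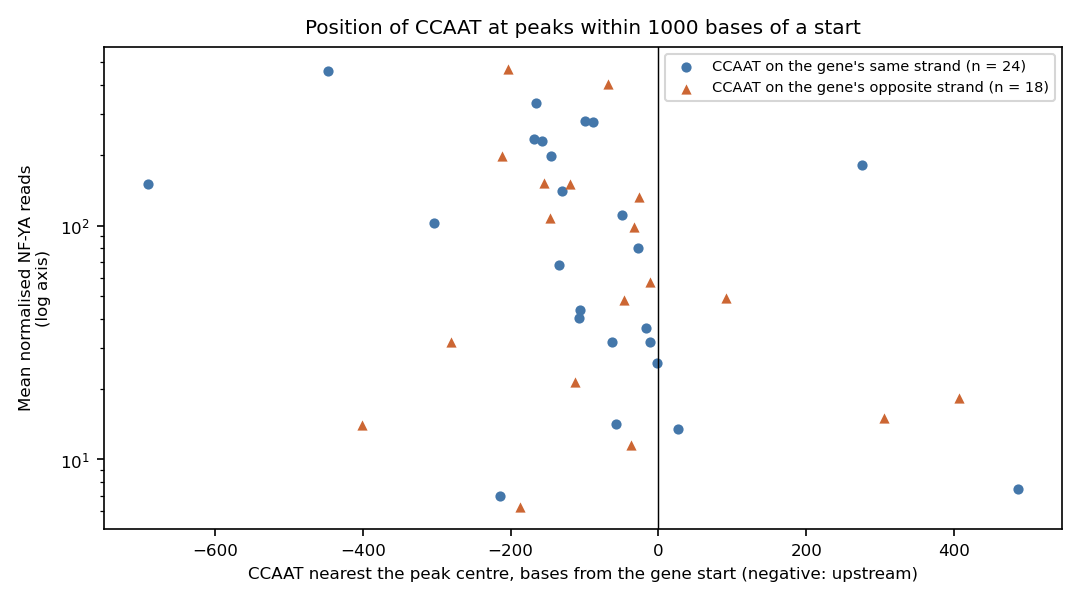
Position of the CCAAT nearest the peak centre relative to the gene start (x axis, bases, negative values upstream) against the mean normalised NF-YA reads over 4 libraries (y axis, log scale) for 42 vesicle trafficking peaks, by strand. The element lay upstream of the start at 36 of 42 peaks, and peaks with a mean above 100 sat upstream except that of *Trappc6a*.

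Peaks with more copies of CCAAT were stronger. The median of the mean value was 15.9 for 6 peaks without a copy in the central 200 bases, 40.2 for 25 peaks with 1 copy, 126 for 16 peaks with 2 copies and 217 for 6 peaks with 3 or more. The same order held over the other protein_coding peaks, with medians of 11.4, 24.8, 59.0 and 111. The peaks with 3 or more copies were those of *Arf2*, *Rab5b*, *Rab4b* (peak 1), *Trappc6a*, *Ap3m2* and *Snx12*, and *Snx12* was the exception with a mean of 6.25. At *Trappc6a* 2 of the 4 copies overlap on opposite strands. Neighbouring copies were 24 to 38 bases apart in 6 of 29 pairs (20.7%), against 32.2% of the pairs in other protein_coding peaks.

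**Figure D2:**
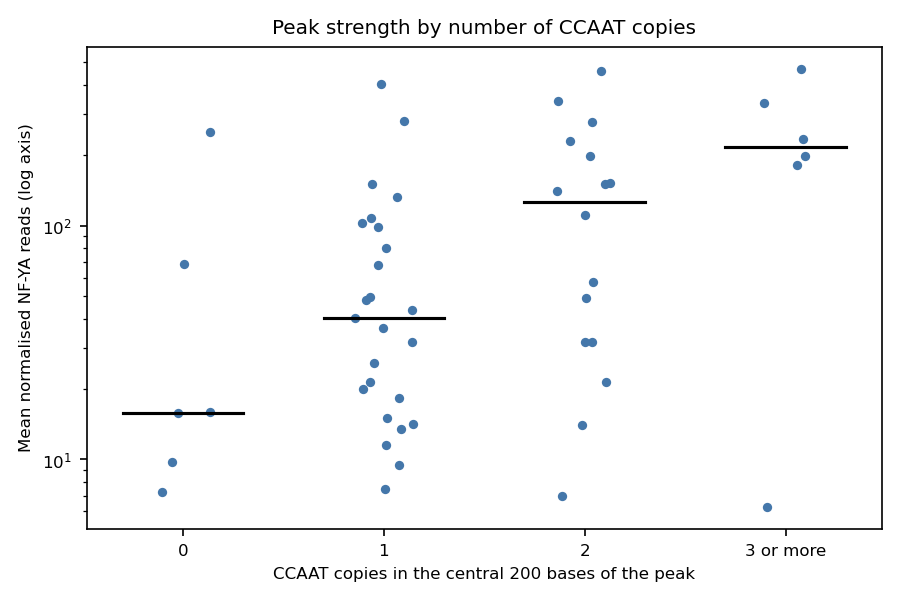
Mean normalised NF-YA reads over 4 libraries (y axis, log scale) of the 53 vesicle trafficking peaks by the number of CCAAT copies in the central 200 bases (x axis). Points are peaks and bars are medians, which run from 15.9 without a copy to 217 with 3 or more.

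The GC box GGGCGG, the element bound by SP1, occurred in the centre of 29 of 53 peaks (54.7%, 41.5 to 67.3), against 44.3% of the other protein_coding peaks. Among peaks within 1000 bases of the assigned start the shares were nearly equal, at 57.4% (27 of 47) and 56.7%. CACGTG, bound by the lysosomal regulator TFEB among other factors, was found in the central 200 bases of 2 peaks (3.77%), against 6.79%. Copies further out, such as that in the sequence shown for *Copz1*, were not counted. The CRE core TGACGT was found in the central 200 bases of 2 peaks (3.77%), against 7.45%, among them the CCAAT-free centre of *Stx5*. The copy in the sequence shown for *Sec23b* peak 1 lies further out and was not counted. The ER stress response elements combine CCAAT with CCACG, which lies 9 bases downstream of CCAAT in ERSE and 1 base downstream of the reverse complement ATTGG in ERSE-II. Neither was found in the central 200 bases of any of the 53 peaks, and they were rare elsewhere, with 13 and 6 matches among the 3784 other protein_coding peaks (0.344% and 0.159%). All motifs were searched on both strands, and ERSE and ERSE-II overlap CCAAT by construction.

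Most genes of every role had no assigned NF-YA peak. Of 259 genes in the annotation that fit the symbols, 47 (18.1%) had an assigned peak and 45 (17.4%) had a peak within 1000 bases of the start, against 14.6% and 12.2% of all 21938 protein_coding genes. Among small GTPases, 14 of 59 Rab genes and 2 of 6 Arf genes had a peak. Among the coats, 1 of 8 COPI genes and 2 of 11 genes of COPII and Sec16 did. The AP-3 adaptor, which sorts cargo to lysosome-related organelles, had peaks at 3 of 7 genes. None of the 10 Rab effectors and regulators that fit the symbols, and none of the 8 Vps genes of the endosomal tethers HOPS and CORVET, had a peak. Of 26 other Rab regulators, whose symbols lie outside the rule, 7 had a peak. The tethering complex TRAPP had peaks at 3 of 15 genes and the exocyst at 1 of 12. No test was made of these counts.

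**Figure D3:**
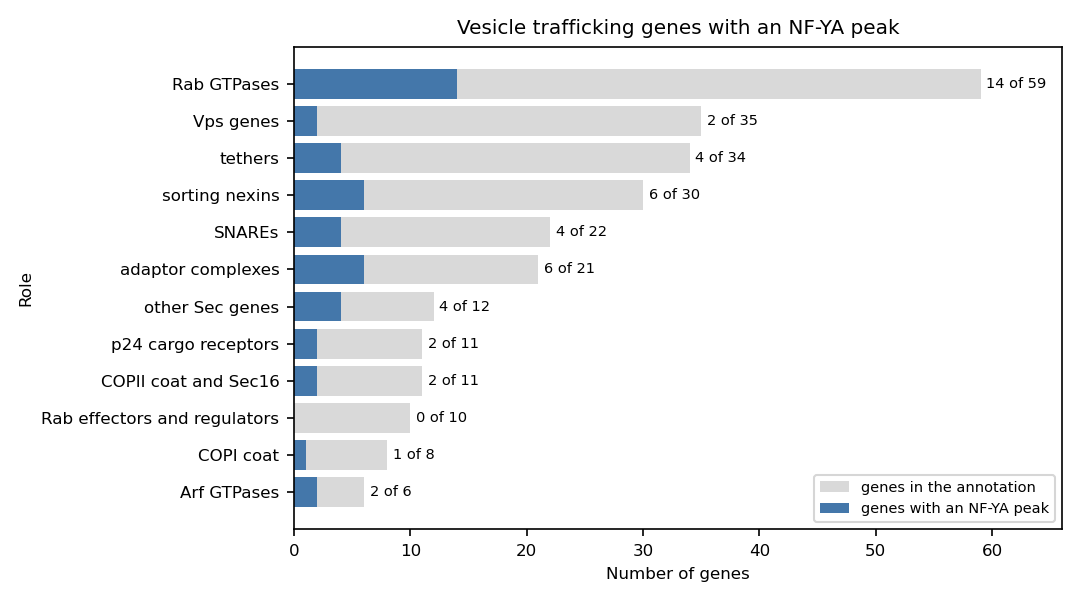
Number of genes in the annotation (grey bars, x axis) and number with an assigned NF-YA peak (blue bars) for each role of the vesicle trafficking genes (y axis). Rab GTPases had the most bound genes, with 14 of 59, and the Rab effectors and regulators that fit the symbols had 0 of 10. Other Rab regulators are not drawn.

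The mean value over the 4 libraries ranged from 6.25 at *Snx12* to 469 at *Arf2*. The median was 49.8, against 34.2 for the other protein_coding peaks and 17.2 for all peaks, and 21 of 53 peaks had a mean of 100 or more. Only 47 peaks reached the mean of 10 required for testing. The peaks of *Sec14l5*, *Rab7b*, *Ap2s1*, *Snx12*, *Vps28* and *Rab4b* (peak 3) did not, with means of 6.25 to 9.75. At means of 100 or more, both knockout values lay below both control values at 11 of 21 vesicle trafficking peaks (52.4%), against 59.0% of the 971 tested peaks of that strength, so separate groups with lower knockout values were common at any strong peak.

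**Figure D4:**
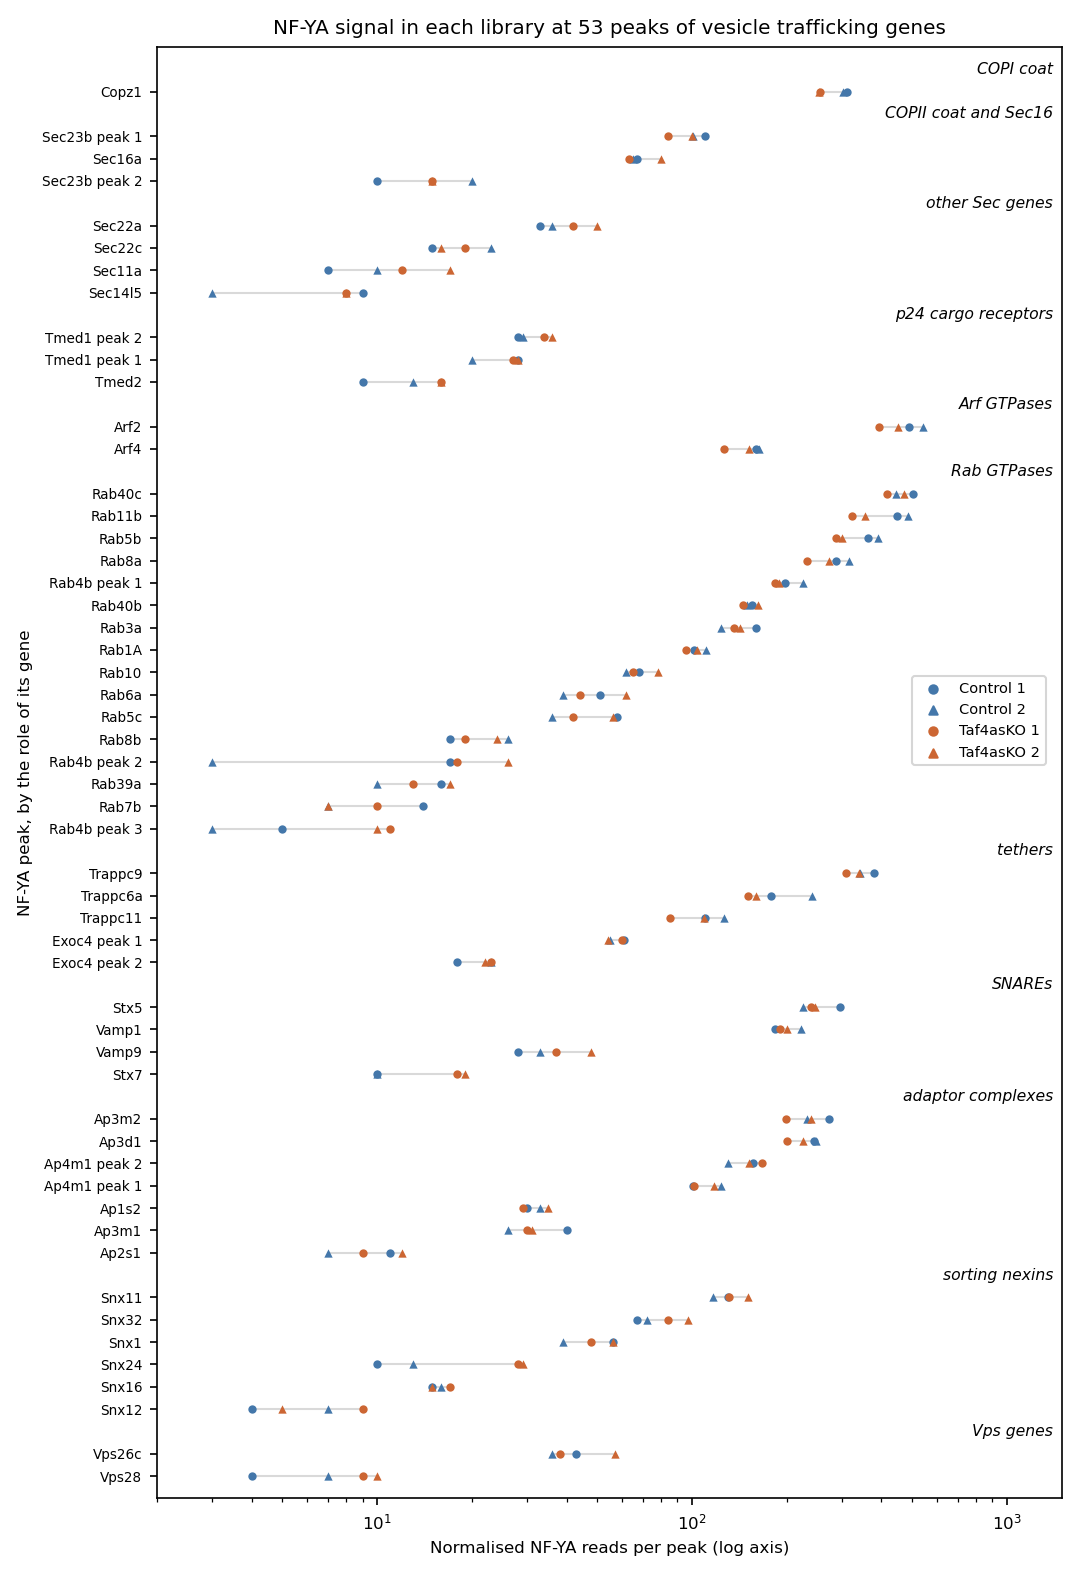
Normalised NF-YA reads (x axis, log scale) in each of 4 libraries for the 53 vesicle trafficking peaks, grouped by the role of the gene (y axis) and ordered by mean within it. Blue marks control and orange Taf4asKO, with circles for replicate 1 and triangles for replicate 2. For most peaks the 4 values lie close together compared with the range between peaks, and the widest spread is seen at peaks with values under 30.

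Of the coat genes, *Copz1*, which encodes the zeta subunit of COPI, carried the strongest peak, with 312 and 303 in control versus 256 and 253 in Taf4asKO (chr15:103272481-103272935). Both knockout values were below both control values. *Sec23b*, a gene of the inner COPII coat, had peak 1 upstream of its start with 110 and 101 in control versus 84 and 100 in Taf4asKO, and the groups were separate by 1 unit. Its weak peak 2, in the gene, had 10 and 20 against 15 and 15. *Sec16a*, which organises ER exit sites, had 67 and 65 in control versus 63 and 80 in Taf4asKO, with overlapping groups. Other Sec genes were bound weakly. The strongest of these was *Sec22a*, related to the ER to Golgi SNARE Sec22, with 33 and 36 in control versus 42 and 50 in Taf4asKO. *Sec22c*, *Sec11a* (the catalytic subunit of signal peptidase) and *Sec14l5* had means of 18.2, 11.5 and 7.

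The cargo receptors of the p24 family were also weakly bound. *Tmed1* had adjacent peaks, of which peak 2 showed 28 and 29 in control versus 34 and 36 in Taf4asKO and peak 1 showed 28 and 20 against 27 and 28. The peak over the *Tmed2* start had 9 and 13 in control versus 16 and 16 in Taf4asKO.

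The Arf GTPases, which recruit coats to membranes, had strong peaks. *Arf2* had the highest mean of all vesicle trafficking peaks, with 491 and 541 in control versus 392 and 453 in Taf4asKO (chr11:103966267-103966831). *Arf4* had 160 and 163 in control versus 127 and 152 in Taf4asKO. At both genes the knockout values were below the control values without overlap, as at 59.0% of all tested peaks of this strength.

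Rab GTPases held 5 of the 12 strongest peaks. *Rab40c*, whose product is a substrate receptor of a ubiquitin ligase, had 504 and 444 in control versus 418 and 471 in Taf4asKO, with overlapping groups. *Rab11b*, of recycling endosomes, had 450 and 486 in control versus 324 and 354 in Taf4asKO (chr17:33760352-33760760). *Rab5b*, of early endosomes, had 362 and 391 against 288 and 300 (chr10:128696193-128696673). At *Rab11b* and *Rab5b* the replicates of each genotype lay close together and the groups were separate. *Rab8a*, which acts in transport to the cell surface, had 287 and 316 in control versus 232 and 273 in Taf4asKO. *Rab4b*, of rapid recycling, had peak 1 upstream of the start with 198 and 225 against 184 and 189, and these groups were separate as well. The peaks of *Rab40b*, *Rab3a* and *Rab1A*, the latter acting between ER and Golgi, had means of 153, 140 and 103 with overlapping groups. The peaks of *Rab10*, *Rab6a*, *Rab5c*, *Rab8b* and *Rab39a* had means between 14 and 68.2, again with overlap. *Rab7b* had a peak with a mean of 9.50 in its intron.

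*Rab4b* had 2 further peaks downstream of its start, within 1000 bases of peak 1 and without CCAAT in their central 200 bases. Peak 2 had 17 and 3 in control versus 18 and 26 in Taf4asKO, and peak 3 had 5 and 3 against 11 and 10. The value of 3 in control 2 corresponds to 0.920 reads after rounding, so these differences rest on very few reads.

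Among tethers, the TRAPP subunit gene *Trappc9* had 380 and 342 in control versus 309 and 340 in Taf4asKO at an intergenic peak 6374 bases from its start (chr15:73067349-73067806). *Trappc6a* had 179 and 241 in control versus 151 and 160 in Taf4asKO, and *Trappc11* 110 and 127 against 85 and 109. In all 3 genes both knockout values were below the control values, although by only 2 units at *Trappc9* and 1 unit at *Trappc11*, and 59.0% of all tested peaks of this strength were separate in this direction. *Exoc4*, an exocyst gene, had 61 and 55 in control versus 60 and 54 in Taf4asKO at its start, and 18 and 23 against 23 and 22 at peak 2, which is 4265 bases upstream.

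Among SNARE genes, *Stx5*, the syntaxin of ER to Golgi transport, had 296 and 225 in control versus 239 and 246 in Taf4asKO, and *Vamp1*, a VAMP of regulated secretion, had 184 and 222 against 191 and 200. The groups overlapped at both. The weaker peaks of *Vamp9* and of the late endosomal syntaxin gene *Stx7* showed the other order, with 28 and 33 in control versus 37 and 48 in Taf4asKO at *Vamp9*, and 10 and 10 against 18 and 19 at *Stx7*.

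Among the adaptor genes that fit the symbols, those of AP-3 had the strongest peaks. *Ap3m2* had 272 and 232 in control versus 199 and 240 in Taf4asKO, and *Ap3d1* had 245 and 248 against 201 and 226. The groups overlapped at *Ap3m2* and were separate at *Ap3d1*. *Ap4m1* had peaks of 156 and 130 against 167 and 152 (peak 2) and 101 and 124 against 102 and 118 (peak 1), both in the *Mcm7* gene on the other side of the shared promoter. *Ap3m1* and *Ap1s2* had the same mean of 31.8, and *Ap2s1*, of the clathrin adaptor AP-2, had 9.75. Values of these genes overlapped between genotypes.

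Sorting nexins were bound at lower levels. *Snx11* had the strongest peak, with 130 and 117 in control versus 131 and 151 in Taf4asKO, followed by *Snx32* with 67 and 72 against 84 and 97. The groups were separate at both, by 1 unit at *Snx11*. *Snx24* had 10 and 13 in control versus 28 and 29 in Taf4asKO at an intergenic peak on chromosome 18, 9372 bases upstream of the start, which is equal to 9.57 and 3.99 reads in control and 64.9 and 42.6 in Taf4asKO. *Snx1* and *Snx16* had means of 49.8 and 15.8 with overlapping groups. The strongest peak of the Vps genes was that of *Vps26c*, with 43 and 36 in control versus 38 and 57 in Taf4asKO, and *Vps28*, of the ESCRT-I complex, had a mean of 7.50.

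To compare the genotypes, limma was applied to log2(value + 1) of the 4746 peaks whose mean reached 10, and p-values were adjusted over all of them. None of the 47 tested vesicle trafficking peaks passed an adjusted p of 0.05 in limma, in which 45 of the 4746 peaks (0.948%) passed. At an unadjusted p under 0.05 in limma there were 5 vesicle trafficking peaks (10.6%), against 17.9% of all tested peaks. Both values of Taf4asKO were below both control values at 12 of 47 peaks (25.5%), against 28.6% of all tested peaks. They were above both control values at 10 of 47 (21.3%), against 19.3%. Thus, neither count of separate groups was far from its background. The log2 fold change was within 0.5 of 0 at 42 of 47 peaks (89.4%), and at 72.7% of all tested peaks. These shares are not like for like, since vesicle trafficking peaks were stronger. At means of 10 to 20 they were 50% and 52.3%, and at 20 to 50 they were 92.3% (12 of 13) and 70.9%. At means of 50 to 100 they were 100% (5 of 5) and 87.2%, and at 100 or more 100% and 91.7%. These differences in share were not tested.

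Tested peaks had a median log2 fold change of 0.02 for the vesicle trafficking genes and -0.04 for all. A change of scaling moves all peaks by nearly the same amount, so the sign of a median this close to 0 is set by the scaling. With libraries set to equal medians the medians became -0.10 and -0.17, and when strong peaks (mean of 100 or more) were used for centring they became 0.23 and 0.17.

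The log2 fold change also differed with the strength of the peak, and is given here in bins of the mean value. At means of 10 to 20 the median log2 fold change was 0.37 for 8 vesicle trafficking peaks and 0.16 for 1417 tested peaks. It was 0.21 for 13 and 0.07 for 1449 at means of 20 to 50, and 0.10 for 5 and -0.06 for 909 at means of 50 to 100. Values were below 0 at 1 of 8 peaks (12.5%) in the weakest bin, against 40.3%, and at 1 of 13 (7.69%) in the next, against 44.4%. These differences from all tested peaks were not tested. At means of 100 or more the median was -0.18 for 21 and -0.22 for 971. Of these 21 strong peaks, 18 (85.7%) were lower in Taf4asKO, against 84.7% of the 971, and the exceptions were *Rab40b*, *Ap4m1* peak 2 and *Snx11*. With libraries scaled to equal totals 12 of the 21 were lower, against 67.1% of the 971. Centring on the strong peaks, which sets their typical difference to about 0 by construction, left 8 lower, against 52.2%. The part of the unequal numbers of reads in peaks in these differences was not tested.

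**Figure D5:**
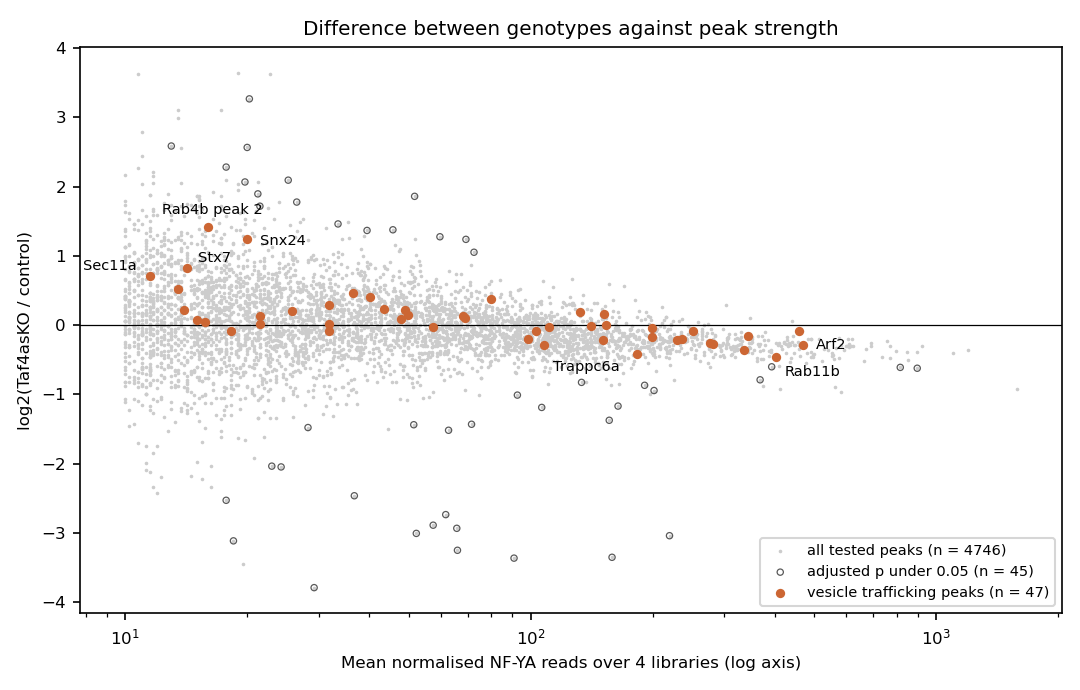
Log2 ratio of Taf4asKO to control from limma (y axis) against the mean normalised NF-YA reads (x axis, log scale) for 4746 tested peaks (grey), the 45 with an adjusted p under 0.05 (open circles) and the 47 tested vesicle trafficking peaks (orange). Vesicle trafficking peaks lie within the grey cloud, which tilts from above 0 at weak peaks to below 0 at strong peaks.

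Among peaks with separate groups, the 5 most negative log2 fold changes belonged to *Rab11b*, *Trappc6a*, *Rab5b*, *Trappc11* and *Arf2*. Of other genes in these families, *Rab5c* had 0.08 with overlapping groups, and *Trappc9* had -0.15 with separate groups in the same direction. Differences between genes of a family were not tested. *Rab11b* had the lowest adjusted p of all vesicle trafficking peaks, with control libraries at 468 ± 25.5 (SD, n = 2) versus 339 ± 21.2 for Taf4asKO. The log2 fold change was -0.46 ± 0.12 (SE), and the limma adjusted p 0.107. This peak passed the threshold with libraries set to equal medians (limma adjusted p = 0.0198) and with values weighted by reads (0.0481), and the adjusted p ranged up to 0.285 over the other alternatives with all 4 libraries. *Trappc6a* had a log2 fold change of -0.42 ± 0.17 (limma adjusted p = 0.244). At *Rab5b* it was -0.35 ± 0.12 (limma adjusted p = 0.181), and libraries with equal medians gave a call there too (0.0468, with up to 0.364 under the others with all 4 libraries). *Trappc11* and *Arf2* both had -0.29, with limma adjusted p of 0.431 and 0.259. The size of several values rested on a single library. *Trappc6a* was at -0.20 without control replicate 2 and -0.63 without control replicate 1. *Trappc11* was at -0.12 without Taf4asKO replicate 1, -0.47 without Taf4asKO replicate 2 and -0.19 without control replicate 2, and *Arf2* at -0.19 without Taf4asKO replicate 1. Centring on strong peaks brought all 5 to between -0.25 and -0.08.

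The 5 most positive log2 fold changes with separate groups were all at peaks with means of 20 or less. *Rab4b* peak 2 had a log2 fold change of 1.42 ± 0.64 (SE) with a limma adjusted p of 0.280, but the value was 0.33 without control replicate 2 and 2.50 without control replicate 1. *Snx24* had 1.25 ± 0.33, with 11.5 ± 2.12 (SD, n = 2) as the control mean versus 28.5 ± 0.707, and a limma adjusted p of 0.110. It passed the threshold when values were weighted by reads (limma adjusted p = 0.0394, with up to 0.285 under the others with all 4 libraries). *Stx7* had 0.83 ± 0.38, *Sec11a* 0.71 ± 0.45 and *Tmed2* 0.52 ± 0.40, with limma adjusted p of 0.283, 0.425 and 0.502. In control 2 the peaks of these 3 genes held 3.07 to 3.99 reads each. *Sec11a* reached the minimum mean of 10 only through its knockout values, with means of 8.5 in control and 14.5 in Taf4asKO. Without control replicate 1 the value of *Tmed2* was 0.28.

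Other genes of the pathway were taken from a list of 161 outside the symbols. Of these, 26 genes had 29 peaks, and of 26 tested peaks 0 were lower and 0 higher at a limma adjusted p of 0.05. At an unadjusted p under 0.05 there were 3 of 26 in limma, against 17.9% of all tested peaks, and the median log2 fold change was -0.16, against -0.04. These medians are not matched for peak strength, and all tested peaks with a mean of 100 or more had a median of -0.22. Both knockout values were below the control values at 8 of 26 peaks, against 28.6%, and above at 3 of 26, against 19.3%. The 3 peaks at an unadjusted p under 0.05 were those of *Ap2a1*, *Mon1b* and *Rabgef1*. *Ap2a1*, the alpha subunit gene of AP-2, had 591 and 672 in control versus 463 and 491 in Taf4asKO. *Mon1b*, whose product activates Rab7, had 699 and 646 against 488 and 600. *Rabgef1*, which encodes an exchange factor of Rab5, showed the other order, with 13 and 7 in control versus 22 and 19 in Taf4asKO. The further COPI and COPII genes of the list and the ER translocon genes had no peak.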

How the data were processed

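Per the methods, with tool versions from the submitters' processing notes, the authors trimmed reads of 36 bases with Trimmomatic 0.39, aligned them with STAR 2.7.11a to mm10, removed duplicates with Picard 3.1.1, called peaks with MACS against IgG, unified them, counted reads with featureCounts and normalised with DESeq2 1.36.0. The methods name other versions of STAR, Picard and DESeq2. The deposited score is this normalised read number, rounded to whole numbers, for 7196 peaks in 4 NF-YA libraries. The authors assigned each peak to the nearest start within a promoter window, at most 10138 bases away.

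What 1 read is worth was found from the steps between values. It was under 1 in the Taf4asKO libraries, so whole reads could not be recovered and no count model was used. Genotypes were compared with limma 3.58.1 (R 4.3.3) on log2(value + 1), with a variance trend, for peaks whose mean reached 10, with Benjamini-Hochberg adjustment. Fold changes on this scale understate low peaks. The fit was tested on simulated data. Positions and motifs used GENCODE M21 and GRCm38. The gene IDs of all 47 genes were found there, 3 under another symbol. With 2 against 2 libraries an exact permutation test cannot go below p = 0.333, and none was used.

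Peaks named with fold changes are those with the 5 most positive and 5 most negative values among peaks with separate groups. Values are given for the 12 strongest peaks, the strongest of each role, the COPI and COPII genes and genes with several peaks. Other peaks were named after their values were seen. Members and lists were chosen with earlier results of these data known.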

Additional observations from a re-analysis of the deposited data

How the results depend on the processing

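Counts of calls varied with the processing. Among all 4746 tested peaks 45 were called, 29 of them lower in Taf4asKO. Libraries with equal medians gave 315 calls (259 lower), weighting by reads 309 (224 lower), a threshold of 0.1 gave 131 (79 lower), equal totals 61 (31 lower) and centring on strong peaks 51 (22 lower), while no minimum on the mean gave 0. Leaving out any of the 4 libraries gave 0 to 0 calls, with a lowest adjusted p over all peaks of 0.187 to 0.739. Such a fit sets 1 library against 2, with the spread taken from the other genotype, and says nothing about the stability of the calls. Among the 47 vesicle trafficking peaks the 0 calls became 2 with equal medians (*Rab11b* and *Rab5b*) and 2 with weights by reads (*Rab11b* and *Snx24*), and were 0 under the other alternatives, with 5 at an unadjusted p under 0.05 in the limma fit reported. The labels give the replicate numbers no shared animal, batch or day, and with 2 pairs the numbers were not taken to pair the libraries. The correlation of deviations between libraries of the same number was -0.09 over tested peaks and 0.26 over peaks with a mean of 100 or more. With the number as a replicate block there were 31 calls (28 lower) among all peaks and 0 among vesicle trafficking peaks.

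The median log2 fold change of the vesicle trafficking peaks moved from 0.02 to 0.23 with centring on strong peaks, ranged from -0.07 to 0.08 when a library was left out, and was -0.02 with 1 peak per gene. CCAAT was found in 67.9% of the central 100 bases and in 17.9% of the flanking windows, which were chosen after the data were seen, and 62.3% of peaks were within 200 bases of a start. A reading of the symbol rule that asks for a further character gives 36 peaks. The low number of reads in peaks in control 2, in which the median peak held 4.91 reads, limits what can be seen at weak peaks.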
